A study of Homo sapiens with 56 samples.

Results

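The transcripts followed here encode 8 secreted or membrane-bound messengers of B cells: the cytokine IL10, the chemokines CCL3, CCL4, CCL22 and CXCL10, and the tumour necrosis factor family ligands TNF, LTA and LTB. They were taken by gene symbol and make up 8 of the 21595 named genes in the deposited table. RNA-seq of poly(A)-selected RNA was available for 56 libraries of 4 established mantle cell lymphoma lines: 15 of MINO-P, 13 of MINO-VR, 15 of JEKO-1 and 13 of Z138. The labels give 12 treatment codes, of which CON was taken as the control: 5 libraries of CON, 6 of CLF, 6 of BTZ, 11 of IBR, 4 of YM155 (a suppressor of BIRC5, which encodes survivin), 6 of S63845 (an MCL-1 inhibitor), 8 of IBR_CLF, 4 of BTZ_CLF, 2 of IBR_YM155, 2 of BTZ_YM155, 1 of IBR_S63845 and 1 of BTZ_S63845. The design names a PI and a BTK inhibitor (BTKi) as partners of YM155 and S63845 without tying them to codes, and gives no dose or time, so the codes BTZ, IBR and CLF and the line suffixes P and VR are used as written. Line and treatment form 37 groups, of which 22 hold 1 library, 11 hold 2 and 4 hold 3, and no label says that libraries of a group came from separate cultures. P-values therefore measure the spread between these libraries, which may be technical.

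Mantle cell lymphoma is a malignancy of mature B cells that depends on signals through the B cell receptor and NF-kB. B cells stimulated through that receptor secrete CCL3 and CCL4, which attract T cells and monocytes, and CCL22, which attracts regulatory and helper T cells through CCR4. IL10 restrains macrophages and T cells and is also a growth factor for B cells. TNF, LTA and LTB sit side by side on chromosome 6: TNF and LTA bind the TNF receptors TNFRSF1A and TNFRSF1B, whereas LTB anchors LTA at the cell surface as a ligand of LTBR. CXCL10 is induced by interferons and calls CXCR3-bearing T cells.

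Sequencing depth, recovered from the step size of the deposited values, was 5.51 to 21.5 M reads (megareads) per library with a median of 16.0 M reads, so that 3 reads corresponded to 0.139 to 0.545 CPM, reads scaled to a common library total. Levels below that floor were not separable from absence. Transcripts of mitochondrial genes took 1.91% to 80.5% of a library (median 6.69%), and the 6 libraries above 50% were all JEKO-1: both BTZ_CLF libraries, both IBR_CLF libraries and replicates 1 and 2 of BTZ. Outside Z138, 8 sets of 2 libraries carry the same name up to a final letter. Their recovered counts differed by a chi-square of 4.2 to 40.81 per gene, above the value near 1 that sampling noise gives, but below the 62.56 to 766.24 of the other libraries compared in the same way. They were kept as separate libraries and averaged in an alternative. The library names also fall into an HK series of 8 libraries (CON, CLF, BTZ and BTZ_CLF of both MINO lines) and an MCL series of 48. For MINO-P and MINO-VR, series and treatment cannot be told apart, and the model carried a series term set by JEKO-1 and Z138. B cell markers were high in all 4 lines (summed CPM of 6 markers, among them MS4A1, CD79A and PAX5, from 175 to 3062). Of the mantle cell lymphoma markers, CD5 stayed under 1 CPM in all Z138 libraries. Among markers of other cells, CD163 was listed at 0 in all MINO-P, MINO-VR and Z138 libraries and MARCO in all libraries outside Z138. Summed monocyte and macrophage markers still reached 5.38 CPM in JEKO-1, 3.43 in MINO-P, 2.48 in Z138 and 1.55 in MINO-VR. The highest were CD163 in JEKO-1 (5.38 CPM) and CD14 in MINO-P (3.38 CPM). Summed NK cell markers reached at most 3.41 CPM, in MINO-VR. T cell markers differed in direction between lines. CD3G was at 0 in both MINO lines and reached 10.05 CPM in Z138, whereas TRAC reached 31.1 CPM in MINO-P, 40.8 in MINO-VR and 21.8 in JEKO-1 against 0.680 CPM in Z138.

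None of the 8 transcripts was abundant throughout. CCL3 was at or above 1 CPM in 42 of 56 libraries, CCL4 in 34, CCL22 and LTA in 33 each, LTB in 32, IL10 in 31, TNF in 30 and CXCL10 in 19. The highest values of IL10 (95.3 CPM), CCL3 (528 CPM), CCL4 (427 CPM) and LTA (37.9 CPM) were all in the MINO-VR CLF library. CCL22 peaked at 125 CPM in MINO-VR under S63845, CXCL10 at 44.4 CPM in MINO-VR CON, TNF at 31.9 CPM and LTB at 39.5 CPM in the 2 MINO-P S63845 libraries. CPM values are not divided by transcript length and are compared only between libraries of the same gene. CCL3 (hg38 chromosome 17, 36088256 to 36090170) and CCL4 (chromosome 17, 36103827 to 36105622) have near-identical copies, CCL3L3 and CCL4L2, in the table, so that reads may be split between them; CCL3L1 and CCL4L1 were not analysed here.

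**Figure D1:**
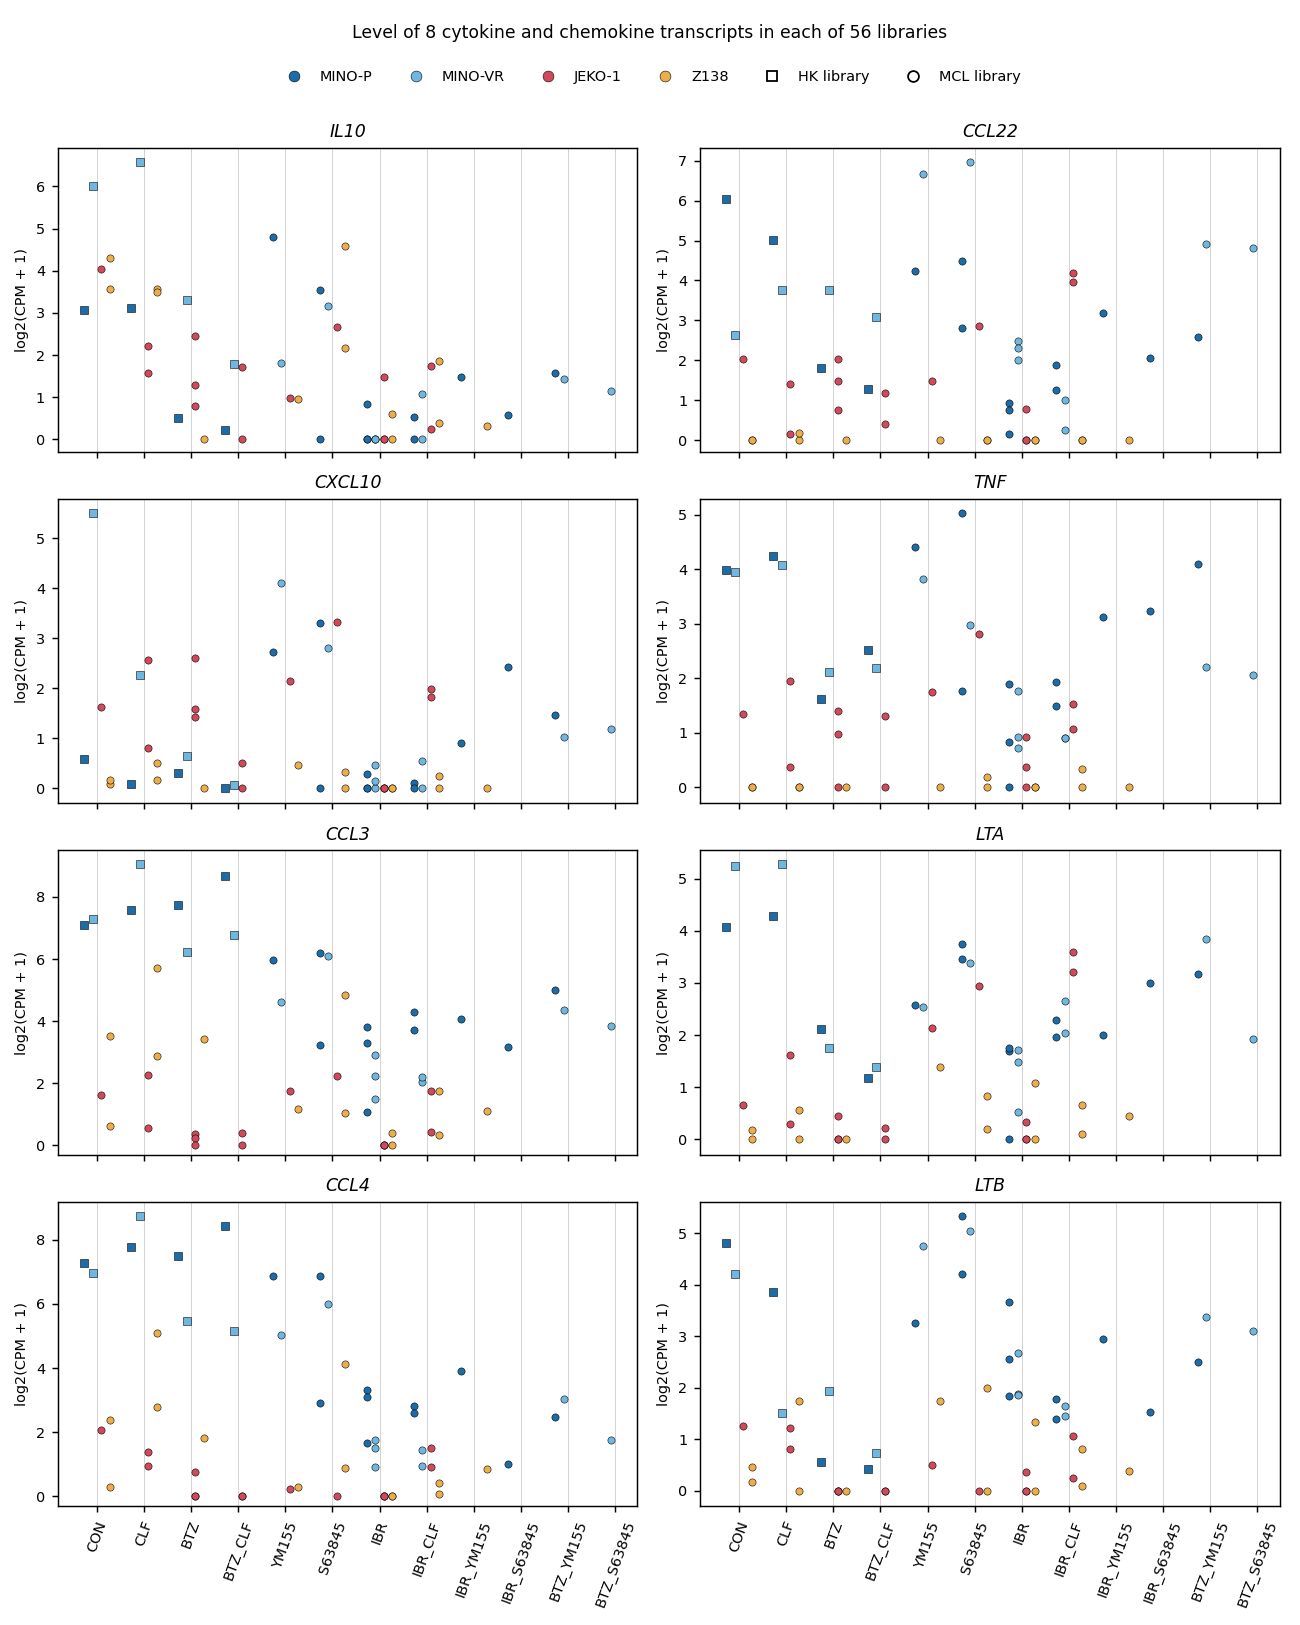
Level of each transcript in each of 56 libraries as log2(CPM + 1), by treatment on the horizontal axis; colour marks the cell line, squares the HK series and circles the MCL series. IL10 and CXCL10 lie at or near 0 in the 11 IBR libraries, and CCL3 in the MINO lines is highest in the HK series (at least 74.4 CPM, against at most 71.6 CPM in the MCL series).

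All 8 transcripts were lower in IBR than in S63845, the 1 contrast in which all 8 passed an adjusted p of 0.05. All 8 estimates also shared a sign in IBR against CON, IBR against YM155 and BTZ against CON (lower) and in IBR_YM155 against IBR (higher). IL10, CCL3, CCL4 and CCL22 were lower by 2.30 to 2.48 on the log2(CPM + 1) scale and TNF, LTA, LTB and CXCL10 by 1.41 to 1.87. Of 16498 genes tested, 6.41% were lower at an adjusted p under 0.05 (8.86% in either direction), and the median difference was -0.07 over all genes against -2.08 over the 8. The test was limma on all 56 libraries with treatment, line and series as terms and Benjamini-Hochberg adjustment over all genes tested, and the same model served every treatment contrast. Fold changes on this scale understate those of low genes.

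IL10, the suppressive cytokine of the set, ranged from 0 to 1.79 CPM (median 0) in the 11 IBR libraries and from 0 to 23.0 CPM (median 6.60) in the 6 S63845 libraries. It was listed at 0 in 8 IBR libraries and in 1 S63845 library, MINO-P replicate 2, where the ranges overlapped. The difference was -2.47 (SE 0.53, adjusted p = 0.0022). CXCL10, the interferon-induced chemokine, ranged from 0 to 0.380 CPM (median 0) under IBR and from 0 to 8.94 CPM (median 3.12) under S63845. The 3 highest S63845 values came from 1 library of each line but Z138, and every IBR library lay below them. The difference was -1.83 (SE 0.44, adjusted p = 0.0058).

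CCL3 ranged from 0 to 13.1 CPM (median 1.10) under IBR and from 1.04 to 71.6 CPM (median 18.2) under S63845. In MINO-VR the 3 IBR libraries held 3.67, 6.47 and 1.82 CPM against 67.6 CPM in the S63845 library, and in JEKO-1 the 3 IBR libraries were at 0 against 3.72 CPM. The difference was -2.48 (SE 0.54, adjusted p = 0.0025). CCL4 ranged from 0 to 9.05 CPM (median 0.886) under IBR and from 0 to 115 CPM (median 11.5) under S63845. JEKO-1 had no CCL4 read in either treatment, and the difference rests on the other lines (-2.30, SE 0.57, adjusted p = 0.0075). The copies CCL3L3 (-1.41, SE 0.36, adjusted p = 0.0089) and CCL4L2 (-1.73, SE 0.55, adjusted p = 0.0377) fell as well. CCL22 ranged from 0 to 4.58 CPM (median 0.671) under IBR and from 0 to 125 CPM (median 6.10) under S63845. Its S63845 levels were 125 CPM in MINO-VR, 21.4 and 6.0 CPM in MINO-P and 6.21 CPM in JEKO-1, each above every IBR library of the same line, whereas Z138 had none in either treatment (-2.40, SE 0.61, adjusted p = 0.0089).

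TNF ranged from 0 to 2.71 CPM (median 0.642) under IBR and from 0 to 31.9 CPM (median 4.22) under S63845. The groups overlapped in MINO-P, where the second S63845 library held 2.40 CPM, and in Z138, where TNF was at or near 0 (-1.67, SE 0.39, adjusted p = 0.0045). LTA ranged from 0 to 2.37 CPM (median 0.428) under IBR and from 0.151 to 12.4 CPM (median 8.10) under S63845. It was the member with the smallest adjusted p (-1.87, SE 0.38, adjusted p = 0.0012), and its IBR and S63845 libraries did not overlap in MINO-P, MINO-VR or JEKO-1. LTB ranged from 0 to 11.6 CPM (median 2.57) under IBR and from 0 to 39.5 CPM (median 10.2) under S63845. Both MINO lines separated fully for LTB and JEKO-1 and Z138 did not (-1.41, SE 0.43, adjusted p = 0.0295).

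All IBR libraries of a line lay below all its S63845 libraries in 3 of 4 lines for IL10, CCL3, CCL22 and LTA and in 2 of 4 for CCL4, LTB, TNF and CXCL10, and in no line was the order opposite. A test of whether the IBR and S63845 difference itself varied by line (17 libraries, limma F-test) called none of the 8, with 0.151% of all genes called and 1737 of 15280 at an unadjusted p under 0.05; CCL22 came nearest (F = 13.0, adjusted p = 0.0764), and leaving out either MINO-P S63845 library raised the count to 2. With JEKO-1 and Z138 alone no member passed (adjusted p from 0.1131 to 0.9122). There IL10 (-2.68) and CCL3 (-2.35) differed by about the same amount as over all lines. The other estimates were smaller in size: CXCL10 -1.61, CCL4 -1.48, LTA -1.31, CCL22 -1.26, TNF -1.06 and LTB -0.28. Without the MINO-VR S63845 library the count fell from 8 to 5, with CCL4 (adjusted p = 0.0635), CCL22 (0.0895) and LTB (0.1454) no longer passing. LTB was the least stable and missed the threshold in 10 of 31 alternatives, among them the averaging of the near-identical libraries (adjusted p = 0.1001). For the counts of members under alternatives, the share of all genes called is not given here.

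**Figure D2:**
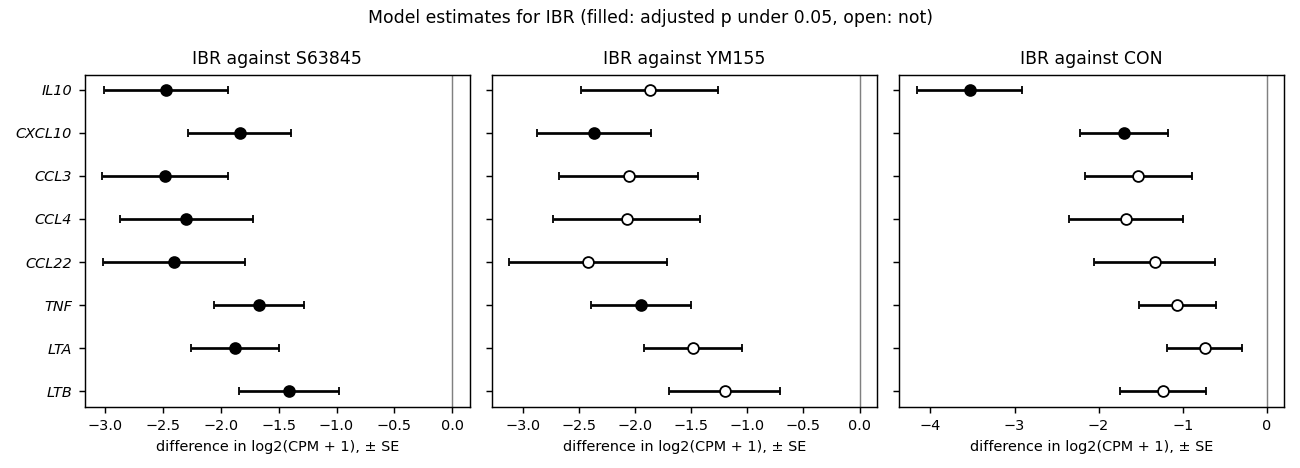
Differences in log2(CPM + 1) between IBR and S63845, YM155 or CON for the 8 transcripts, with standard errors; filled points have an adjusted p under 0.05. Every estimate is below 0, and 8, 2 and 2 pass, respectively; the 3 contrasts share the same 11 IBR libraries.

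The genes around the set moved in part with it. Of 13 NF-kB feedback genes, 7 fell in IBR against S63845 and none rose (median -0.99), including CD83, an activation marker (-2.38, SE 0.40), TNFAIP3, which encodes the ubiquitin-editing inhibitor A20 (-1.66, SE 0.28), BIRC3 (-2.72, SE 0.64) and TRAF1 (-1.73, SE 0.44). Of 9 receptors of the members that were tested, 4 fell, among them TNFRSF1B (-1.50) and CCR1 (-1.20), and 1 rose, TNFRSF1A (1.13). Of 7 other chemokines, CCL5 (-1.66) and CXCL11 (-0.77) fell and CXCL16 (1.12) rose. Of 17 other cytokines, IL19 (-1.39) and IL16 (-0.93) fell. Of 11 other TNF family ligands, TNFSF15 (-1.32) and TNFSF8 (-1.99) fell and TNFSF13 (1.06) rose. None of 12 interferon-induced genes and none of 7 genes of IL-10 receptor signalling passed. With median-of-ratios size factors 55.3% of all called genes were lower in place of 72.3%, and all 8 members still passed. More genes were called in that fit, 1064 higher and 1318 lower of 16721, against 405 and 1057 of 16498 in the main fit.

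Markers of cell identity and library quality also differed between these 2 treatments. Of the 6 B cell markers 3 were lower under IBR, among them PAX5 (-2.35) and CD22 (-1.92), as were CD5 and CCND1 of the 3 mantle cell lymphoma markers and TRAC of the 3 T cell markers tested. Summed B cell markers ranged from 733 to 3062 CPM in IBR and from 877 to 2983 CPM in S63845, and the mitochondrial share from 5.59% to 20.9% and from 3.91% to 17.5%. Summed T cell markers ranged from 0.141 to 5.43 CPM in IBR and from 4.68 to 26.2 CPM in S63845, and depth from 7.07 to 18.9 and from 12.1 to 21.2 M reads. All 8 members passed with mitochondrial genes left out and the rest rescaled, a fit in which 726 of 17203 genes were higher and 1580 lower. The part of the cell markers and of depth in the result was not tested. In bulk RNA, fewer cells with a transcript and less of it per cell cannot be told apart.

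The promoters of the members that fell were searched for short motifs, because the NF-kB feedback genes fell beside them. Windows of 250 bases before each RefSeq start site (build GRCh38.p14) were found for 7 of the 8 members, all but CCL4. The NF-kB consensus, searched on both strands, occurred in 9.95% of 34943 RefSeq promoter windows. Among the members it was found before at least a single start site of CCL22, LTA, LTB and CXCL10. IL10, CCL3, LTA and LTB have more than a single window, so a share of members and a share of windows are unlike measures. CCL22 (transcript on the forward strand of chromosome 16, 57358783 to 57366190) and CXCL10 (reverse strand of chromosome 4, 76021118 to 76023498) are shown as the chemokines with a match. Capitals mark the matches, 2 in each, which overlap each other in CCL22. In CXCL10 the first stretch in capitals is instead a match to GAAA, any 2 bases, GAAA, an interferon-response type of repeat searched on both strands and present in 3.02% of the windows.
CCL22, chr16:57358533-57358782, forward strand: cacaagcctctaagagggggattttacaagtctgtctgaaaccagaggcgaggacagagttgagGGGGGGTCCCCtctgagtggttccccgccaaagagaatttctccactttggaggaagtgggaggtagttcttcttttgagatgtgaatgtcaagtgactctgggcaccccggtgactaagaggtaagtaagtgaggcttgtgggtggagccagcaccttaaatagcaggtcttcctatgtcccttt
CXCL10, chr4:76023498-76023747, reverse strand: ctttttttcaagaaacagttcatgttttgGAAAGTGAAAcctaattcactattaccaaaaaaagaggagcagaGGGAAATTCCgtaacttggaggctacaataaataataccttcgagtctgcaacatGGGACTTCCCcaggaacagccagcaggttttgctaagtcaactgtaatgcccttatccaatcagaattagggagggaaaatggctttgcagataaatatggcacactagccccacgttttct
In LTA the matches were the overlapping GGGGGCTTCC and GGGGCTTCCC and in LTB GGAAAGTCCC. No NF-kB consensus was in the windows of TNF, CCL3 or IL10. TATAAA lay between 30 and 24 bases before a start site of each, but not in the other windows of CCL3 and IL10. LTA held TATAAA too, a motif in 10.75% of all windows. TGANTCA, an AP-1 type site in 6.59% of windows, was found only before another start site of IL10. A match describes letters in a window and not binding.

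Against CON, IL10 and CXCL10 were lower in IBR, 2 of 8 members where 3.89% of all genes were lower (6.95% in either direction). IL10 was at 7.43 CPM in MINO-P, 63.8 in MINO-VR, 15.5 in JEKO-1 and 18.8 and 10.9 in the 2 Z138 libraries of CON. Every one of the 11 IBR libraries, at most 1.79 CPM, lay below every CON library. The mean fell from 23.3 ± 23.1 CPM (SD, n = 5) to 0.283 ± 0.569 CPM (SD, n = 11), a difference of -3.54 (SE 0.63, limma adjusted p = 0.000402). It passed in all 29 alternatives, including JEKO-1 and Z138 alone, whose libraries are all of the MCL series (-3.52, adjusted p = 0.00528), and Z138 alone (-3.63, adjusted p = 0.0386). CXCL10 was at 0.499 CPM in MINO-P, 44.4 in MINO-VR, 2.07 in JEKO-1 and 0.0624 and 0.120 in Z138 under CON. It was at most 0.380 CPM under IBR, and below the CON libraries of the same line in all 4 lines, but the Z138 values are at or under the 3-read floor. The difference of -1.70 (SE 0.52, adjusted p = 0.0371) was not called in 9 of 28 alternatives, among them without the MINO-VR CON library (-1.01, adjusted p = 0.1827), with near-identical libraries averaged (0.0855), and without any 1 of the JEKO-1 IBR libraries (0.0549 to 0.0639).

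The other 6 members had estimates from -0.74 for LTA to -1.68 for CCL4, none of which passed (adjusted p from 0.1246 to 0.3496). CCL3 held 136 CPM in MINO-P CON and 155 CPM in MINO-VR CON against 1.10 to 13.1 CPM in the 6 IBR libraries of these lines, but those CON libraries are HK and the IBR libraries MCL. With the series term left out of the model 7 members passed instead of 2. The share of all genes called without that term is not given here, so this count has no background. In JEKO-1 CCL3 went from 2.07 CPM to 0 in all 3 IBR libraries and in Z138 from 10.5 and 0.538 CPM to 0 and 0.316 CPM. Of the NF-kB feedback genes 4 of 13 fell and none rose: CD83 (-2.53), TNFAIP3 (-1.41), NFKB1 (-1.12) and NFKBIE (-1.01). Of the B cell markers 3 of 6 fell, among them PAX5 and CD22, with summed levels of 849 to 2319 CPM in CON and 733 to 3062 CPM in IBR. The mitochondrial share was 1.91% to 3.92% in CON and 5.59% to 20.9% in IBR without overlap. Summed T cell markers were 10.9 to 43.6 CPM in CON and 0.141 to 5.43 CPM in IBR, also without overlap, and their part in the result was not tested. IL10 and CXCL10 still passed with the mitochondrial genes left out. In that fit 751 of 17203 genes were higher and 1100 lower, against 506 and 641 of 16498 in the main fit.

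Against YM155, TNF and CXCL10 were lower in IBR, 2 of 8 members where 1.59% of all genes were lower (2.01% in either direction). TNF was at 20.3 CPM in MINO-P, 13.1 in MINO-VR, 2.36 in JEKO-1 and 0 in Z138 under YM155. Outside Z138 every IBR library lay below the YM155 library of its line (-1.95, SE 0.45, limma adjusted p = 0.0116). CXCL10 was at 5.60 CPM in MINO-P, 16.2 in MINO-VR, 3.4 in JEKO-1 and 0.387 in Z138, each above every IBR library of its line (-2.36, SE 0.51, adjusted p = 0.0078). CCL3, CCL4 and LTA were ordered alike in all 4 lines, but CCL4 in Z138 under YM155 (0.232 CPM) was no higher than the 3-read floor. CCL3 was at 61, 23.7, 2.36 and 1.24 CPM under YM155 in the same order of lines. The other 6 members had estimates of -1.20 to -2.42 and adjusted p of 0.0535 to 0.1860. The count rested on single YM155 libraries: without that of MINO-P or that of MINO-VR it was 0, without that of Z138 it was 6, and without Z138 IBR replicate 2 it was 4. With near-identical libraries averaged it was 1 (TNF 0.0524). It was 6 without the JEKO-1 libraries over 50% mitochondrial and 8 with array weights. For these alternatives the share of all genes called is not given here. Of the NF-kB feedback genes 7 of 13 fell, and of the 12 interferon-induced genes RSAD2 (-3.83, SE 0.76) and GBP1 (-2.73, SE 0.59) did. The Z138 YM155 library has a name ending in the letter A. In Z138, 10 of 11 interferon-induced genes tested were lower without that letter than with it, and CXCL10 was higher with it in 4 of 5 treatments. The part of the letter in the Z138 values was not tested. Size factors moved the median of all genes from -0.14 to near 0 and the share of lower calls from 79.5% to 51.3%, while the median over the 8 members went from -2.00 to -1.75.

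IL10, LTA and LTB were lower in BTZ than in CON, 3 of 8 members in a contrast in which 22.3% of all genes were lower (24.0% in either direction) and the median gene moved by -0.42. IL10 under BTZ was at 0.413 CPM in MINO-P, 8.96 in MINO-VR, 4.45, 0.724 and 1.46 in JEKO-1 and 0 in Z138, with a median of 1.09 CPM over the 6. All were below the CON libraries of the same line (-2.74, SE 0.64, limma adjusted p = 0.00135). IL10 was called in all 24 alternatives, among them without the 6 libraries rich in mitochondrial transcripts (-3.03, adjusted p = 0.00257). LTA under BTZ was at 3.31 CPM in MINO-P, 2.38 in MINO-VR, 0, 0.362 and 0 in JEKO-1 and 0 in Z138, against 15.8, 37, 0.584 and, in Z138, 0.125 and 0 CPM in CON. The fall was thus carried by the MINO lines (-1.43, SE 0.46, adjusted p = 0.0171), and it was not called with size factors (0.0681), with mitochondrial genes left out (0.0647), without the MINO-VR CON library (0.0838) or without the MINO-VR BTZ library (0.0598). LTB under BTZ was at 0.472 CPM in MINO-P, 2.83 in MINO-VR and 0 in all JEKO-1 and Z138 libraries, against 26.9, 17.5, 1.38, 0.374 and 0.120 CPM in CON (-1.67, SE 0.52, adjusted p = 0.0146). Leaving out the CON library of MINO-P (0.0860) or MINO-VR (0.0572), or the MINO-P BTZ library (0.0591), ended that call. With JEKO-1 and Z138 alone, IL10 was the 1 member that passed, and the share of all genes called in that fit is not given here.

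CCL3 and CCL4 stayed high in MINO-P under BTZ. In MINO-P, CCL3 was at 211 CPM and CCL4 at 177 CPM under BTZ and at 405 and 343 CPM under BTZ_CLF, against 136 and 154 CPM in CON, all in HK libraries with 1 library each. In MINO-VR both were lower than CON, at 74.4 and 43.4 CPM, and in JEKO-1 they were at most 0.278 and 0.695 CPM in the 3 BTZ libraries. Over the lines neither passed (CCL3 -0.35, SE 0.65, adjusted p = 0.7387, and CCL4 -0.64, SE 0.69, adjusted p = 0.5344). Of the NF-kB feedback genes 8 of 13 fell, including NFKBIE (-2.13) and NFKBIA (-1.50), while CXCL8, a neutrophil chemokine, rose (3.22, SE 0.63) as 1 of 7 other chemokines tested. B cell markers fell in 5 of 6 (summed 274 to 1672 CPM in BTZ, 849 to 2319 CPM in CON), and the mitochondrial share was 4.11% to 67.6% in BTZ against at most 3.92% in CON. Size factors moved the median of all genes to -0.07 and that of the 8 members from -0.96 to -0.59, and 57.9% of called genes were then lower in place of 92.7%.

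No member passed for YM155, S63845 or CLF against CON. Limma called 0.273% of genes for YM155 (2109 of 16498 at an unadjusted p under 0.05), 0.0% for S63845 (414 at an unadjusted p under 0.05) and 0.0% for CLF (58). For YM155, 6 members had estimates above 0 and 2 below, with IL10 at -1.67 (SE 0.75, adjusted p = 0.3395) and CCL22 at 1.08 (SE 0.86, adjusted p = 0.6418). For S63845, 7 were above 0, with LTA at 1.13 (SE 0.49, adjusted p = 1.0), and IL10 below at -1.06 (SE 0.69). In the libraries themselves, CCL4 lay below CON in 3 of 4 lines under S63845, with none above, and in all 4 under YM155. In Z138 that order is not separable: CCL4 was at 0.232 CPM under YM155, no higher than the 3-read floor, against 0.239 CPM in CON replicate 2. CCL3 under S63845 lay below CON in 2 lines and above it in 1. For the MINO lines CON is HK and both drugs are MCL, so the fitted estimates include the series term. For CLF, CCL3 (1.15, SE 0.64) and CCL4 (1.12, SE 0.68) had the highest estimates, and CCL3 went from 155 to 528 CPM in MINO-VR and from 136 to 190 CPM in MINO-P, 1 library each. In JEKO-1, CCL3 was at 0.459 and 3.85 CPM under CLF against 2.07 in CON, and CCL4 at 0.918 and 1.61 CPM against 3.19, lower in both libraries. IL10 was at 95.3 CPM in MINO-VR under CLF against 63.8 in CON, and at 3.62 and 1.95 CPM in JEKO-1 against 15.5. CCL22 had opposite orders in the 2 MINO lines, untested: in MINO-VR it was at 125 CPM under S63845 and 101 CPM under YM155 against 5.15 CPM in CON, and in MINO-P at 21.4, 6.0 and 18.0 CPM against 64.8 CPM.

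LTA was higher in BTZ_YM155 than in BTZ, the 1 member called in a contrast in which 0.891% of all genes were higher (0.921% in either direction). LTA was at 8.03 CPM in MINO-P and 13.4 in MINO-VR under BTZ_YM155 against 3.31 and 2.38 CPM under BTZ in the same lines (3.02, SE 0.67, limma adjusted p = 0.0178). The BTZ libraries of these lines are HK and the BTZ_YM155 libraries MCL. The fitted difference includes the series term, and without it the value was 1.75 and not called (0.4592). LTA was not called without either BTZ_YM155 library (0.1342 and 0.2819) or, by a small margin, with averaged libraries (0.0504), size factors (0.0541) or mitochondrial genes left out (0.0544). TNF was at 16.1 CPM in MINO-P under BTZ_YM155 against 2.07 CPM under BTZ, and at 3.62 against 3.34 CPM in MINO-VR (1.86, SE 0.70, adjusted p = 0.1519). Of the 13 NF-kB feedback genes 7 rose, including NFKBIA (3.14, SE 0.47), TRAF1 (4.10, SE 0.78) and RELB (2.55, SE 0.57). With size factors 47.6% of called genes were lower in place of 3.3%, and the median gene moved from 0.38 to 0.04.

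No member passed for BTZ_CLF against BTZ (limma, 0.0% of genes, 986 at an unadjusted p under 0.05) or IBR_YM155 against IBR (0.0%, 537). In IBR_YM155 all 8 estimates were above 0, and TNF was at 7.68 CPM in MINO-P against 0.782, 2.71 and 0 CPM under IBR, yet at 0 in Z138 in every one of these libraries. The lone IBR_S63845 library, of MINO-P, held 8.37 CPM of TNF, 6.99 of LTA, 4.40 of CXCL10 and 0.482 of IL10. The lone BTZ_S63845 library, of MINO-VR, held 26.9 CPM of CCL22, 7.55 of LTB and 1.22 of IL10. These 2 libraries have no replicate and were not tested.

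No member passed for IBR_CLF against IBR over the lines (limma, 0.0121% of genes called, 1521 at an unadjusted p under 0.05). LTA had the highest estimate (1.38, SE 0.34, adjusted p = 0.1521), with all IBR_CLF libraries above all IBR libraries in 3 of 4 lines. In JEKO-1, CCL22 was at 17.3 and 14.5 CPM under IBR_CLF against 0, 0 and 0.704 CPM under IBR, LTA at 11.0 and 8.24 against 0, 0.259 and 0 CPM, and CXCL10 at 2.53 and 2.96 CPM against 0 in all 3. In MINO-VR, CCL22 was instead lower under IBR_CLF, at 1.01 and 0.198 CPM against 3.04, 4.58 and 3.96 CPM. A limma F-test of whether the difference varied by line (19 libraries, chosen after the values were seen) called CCL22 (F = 40.6, adjusted p = 0.0001), LTA (F = 7.45, adjusted p = 0.0159) and CXCL10, 3 of 8 members where 27.3% of all genes were called. CXCL10 passed the filter on low values only through the 2 JEKO-1 IBR_CLF libraries in which it is high, so that its call is no support. Both JEKO-1 IBR_CLF libraries are 59.1% and 60.7% mitochondrial, against 13.5% to 20.9% in JEKO-1 IBR, and their names differ by the final letter alone. With near-identical libraries averaged none of the 3 passed (adjusted p = 0.2499, 0.5563 and 0.5563), and without the JEKO-1 libraries over 50% mitochondrial, which removes IBR_CLF from that line, neither CCL22 nor LTA passed and CXCL10 was not tested. Without replicate 1 or replicate 2 of JEKO-1 IBR_CLF CCL22 still passed, LTA did not (0.0980 and 0.0558), and CXCL10 fell below the filter and was not tested.

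**Figure D3:**
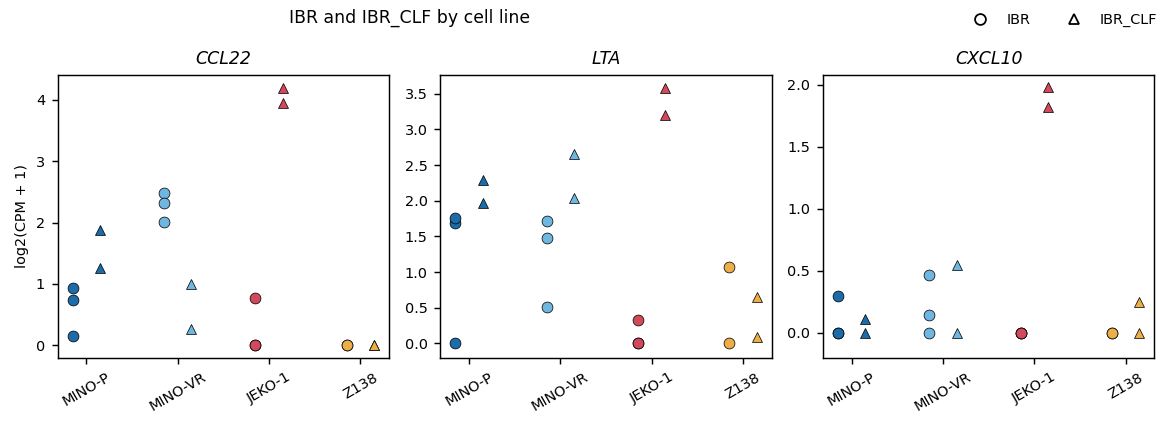
CCL22, LTA and CXCL10 as log2(CPM + 1) in each IBR (circles) and IBR_CLF (triangles) library, by cell line. The 2 JEKO-1 IBR_CLF libraries stand above the 3 JEKO-1 IBR libraries in all 3 panels, and for CCL22 the MINO-VR order is the opposite.

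Levels differed between cell lines for 7 of the 8 members, in a test that called 66.3% of all genes, and IL10 did not pass. The comparison used the 29 libraries of IBR, IBR_CLF, YM155 and S63845, the 4 treatments found in every line, all of the MCL series. The limma F-test over lines called 66.3% of 15850 genes. It called LTB (F = 18.6, adjusted p = 3.39e-06), CCL3 (F = 15.9, adjusted p = 1.21e-05), CCL4, TNF, LTA, CCL22 and CXCL10 (F = 4.33, adjusted p = 0.0204). CXCL10 was not called without the JEKO-1 libraries over 50% mitochondrial (0.0635) or without the Z138 YM155 library (0.0735). IL10 had medians of 0.216 CPM in MINO-P, 0 in MINO-VR, 0.981 in JEKO-1 and 0.928 in Z138 (F = 0.11, adjusted p = 0.9586). IL10 was listed at 0 in 8 of the 11 IBR and 2 of the 8 IBR_CLF libraries of this set. CXCL10, which passed, was listed at 0 in 8 and 3 of them. The part of these zeros in the IL10 result was not tested. In CON, outside the set, IL10 was at 7.43 CPM in MINO-P and 63.8 CPM in MINO-VR, 1 library each.

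The MINO lines were highest for CCL3, CCL4 and LTB. CCL3 had a median of 12.7 CPM (range 1.10 to 71.6, n = 8) in MINO-P, 3.67 (1.82 to 67.6, n = 7) in MINO-VR, 1.04 (0 to 27.9, n = 7) in Z138 and 0.361 (0 to 3.72, n = 7) in JEKO-1. Against MINO-P, JEKO-1 differed by -2.85 (SE 0.52) and Z138 by -2.75 (SE 0.51). CCL4 ordered alike, with medians of 7.02, 1.87, 0.232 and 0 CPM, and LTB with 6.71, 2.66, 0.761 and 0.181 CPM. Between JEKO-1 and Z138 none of these 3 passed, and between MINO-P and MINO-VR none of the 8 did, where limma called 2.61% of all genes and 2158 had an unadjusted p under 0.05. The largest estimate between the MINO lines was CCL22 at 1.23 higher in MINO-VR (SE 0.68, adjusted p = 0.4576).

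Z138 stood lowest for CCL22, TNF and LTA. CCL22 was listed at 0 in all 7 Z138 libraries of this set and TNF was at most 0.254 CPM, against medians of 1.79 and 1.08 CPM in JEKO-1. Z138 was below MINO-P for 6 members (14.6% of genes lower, 38.8% in either direction), below MINO-VR for 7 (17.4% and 39.3%), and below JEKO-1 for 4 (15.5% and 52.1%): CCL22 (-2.25, SE 0.70), LTA (-1.41, SE 0.40), TNF (-1.37, SE 0.44) and CXCL10 (-1.43, SE 0.43). The 4 differences from JEKO-1 were not called without the 2 JEKO-1 IBR_CLF libraries that exceed 50% mitochondrial (adjusted p from 0.0521 to 0.2117). JEKO-1 was below each MINO line for 3 members, CCL3, CCL4 and LTB (24.2% of genes lower and 36.9% in either direction against MINO-P, 27.7% and 39.2% against MINO-VR), and those held in all 39 alternatives. These shares in either direction are near 3 of 8, and the 52.1% for Z138 against JEKO-1 is near 4 of 8. The counts in these contrasts therefore do not set the members apart from other genes. For Z138 against MINO-VR, CXCL10 was not called without the Z138 YM155 (0.0655), MINO-VR YM155 (0.0807) or MINO-VR S63845 library (0.0634), and CCL4 not without the last (0.0602). With mitochondrial genes left out, 39.0% of called genes were lower in place of 65.6% for JEKO-1 against MINO-P, 44.6% in place of 70.6% for JEKO-1 against MINO-VR, and 51.3% in place of 29.8% for Z138 against JEKO-1. For Z138 against JEKO-1, size factors moved the median of all genes from 0.34 to near 0 and that of the 8 members from -0.63 to -0.82.

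**Figure D4:**
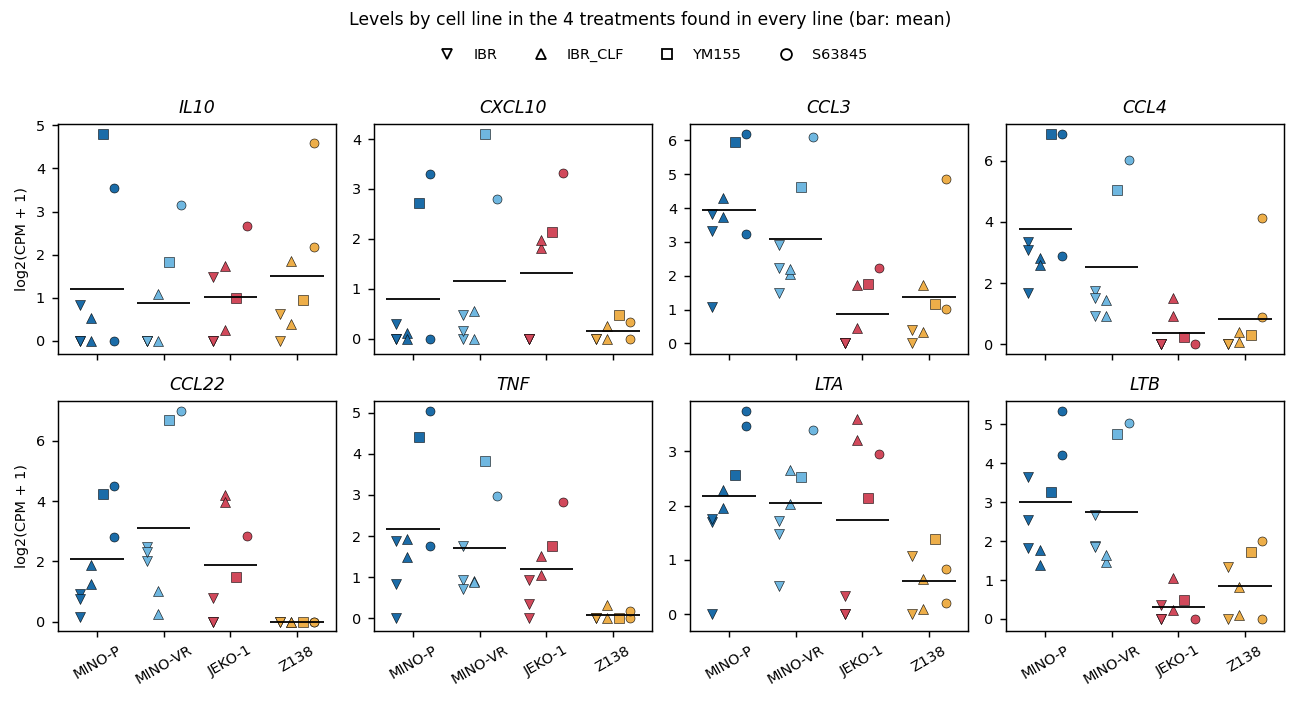
Level of each transcript as log2(CPM + 1) in the 29 libraries of 4 treatments, by cell line, with a bar at the mean and a symbol for each treatment. CCL3, CCL4 and LTB are highest in MINO-P and MINO-VR, and CCL22 and TNF are at or near 0 in Z138. IL10, listed at 0 in 8 of the 11 IBR libraries, has similar bars in all lines.

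Within Z138, 5 treatments have a library with and a library without a final letter A in its name, and these differed in CCL3. CCL3 without and with the letter was at 10.5 and 0.538 CPM in CON, 51.9 and 6.41 CPM in CLF, 27.9 and 1.04 CPM in S63845, 2.34 and 0.254 CPM in IBR_CLF, and 0 and 0.316 CPM in IBR. It was higher without the letter in 4 of 5, as was CCL4 in 4 of 5, whereas LTB was higher with the letter in 4 of 5. In a limma fit of Z138 alone, chosen after the values were seen, CCL3 was 2.12 higher without the letter (SE 0.52, adjusted p = 0.0349; 3.81% of 14028 genes were higher and 11.3% called in either direction). CCL4 (1.59, SE 0.45, adjusted p = 0.0520) and LTB (-1.10, SE 0.33, adjusted p = 0.0604) did not pass, and CCL22, TNF and CXCL10 were below the filter. Of 11 interferon-induced genes tested, 10 were lower without the letter (median difference -3.56). The CCL3 call was lost in 8 of 15 alternatives, each of which left out 1 library of CON, CLF, S63845 or IBR_CLF (adjusted p from 0.0628 to 0.1376). Without either Z138 IBR library 2 members passed. For the fits with a library left out, the share of all genes called is not given here. With size factors 51.8% of called genes were lower in place of 66.3%. What the letter stands for is not given in the sources used here.

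**Figure D5:**
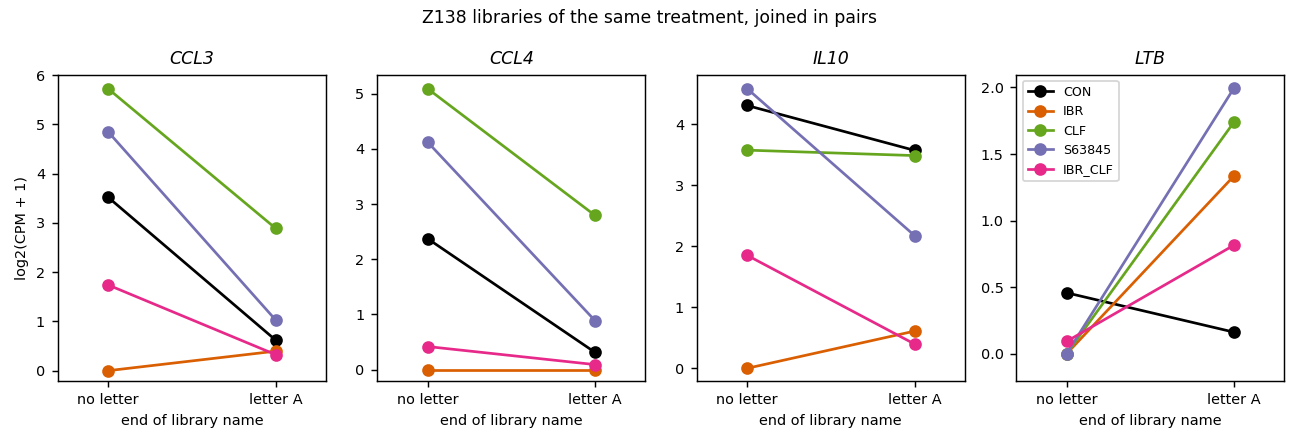
CCL3, CCL4, IL10 and LTB as log2(CPM + 1) in the Z138 libraries of 5 treatments, with libraries without and with a final letter A in the name joined by lines. CCL3 falls from the library without the letter to that with it in 4 of 5 treatments, and LTB goes the other way in 4 of 5.

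Genes that followed each member across the 37 groups, after the mean of each line was taken off, are given as a description over points that share lines, libraries and controls. CCL3 and CCL4 were most like each other (Pearson r = 0.91) and their copies CCL3L3 and CCL4L2 (r = 0.86 to 0.96), which may share reads. TNF was nearest to IL4I1 (r = 0.86), SEMA7A (0.83) and HIVEP3 (0.81), and among members to CXCL10 (0.72) and LTA (0.71). IL10 was nearest to CDC7 (0.84), FCRL5 (0.83) and IVNS1ABP (0.83), CCL22 to LILRA4 (0.80), IL13RA1 (0.78) and SLA (0.74), and LTB to CRIP2 (0.83), TMEM229B (0.82) and SLA (0.79). LTA was nearest to SHISAL2A, GRAMD1B and SMIM38 (0.78 to 0.79) and CXCL10 to CMPK2 (0.78), NEXN (0.74) and TNF. Between CCL3 and LTB r was -0.05.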

How the data were processed

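Poly(A)-selected RNA was sequenced as paired-end TruSeq libraries, per the labels' protocols. The authors deposited 1 table of log2(CPM + 1) values for 56 libraries; Partek and hg38 are named in the submitters' processing notes, without versions, and the aligner and counter are not given in the sources used here. Powers of 2 of the deposited log2 values, less 1, gave CPM sums of 999984 to 1000009 per library. Reads per library were recovered from the step between low CPM values, with 78.7% to 90.4% of values whole within 0.05 reads. The entry with no gene name, up to 0.00077% of the reads, was not tested. Genes with at least 1 CPM in 2 libraries were tested on log2(CPM + 1) with limma 3.58.1 (R 4.3.3, empirical Bayes with a mean trend) and Benjamini-Hochberg adjustment over all genes tested, at a threshold of 0.05. The scripts were tested on simulated data. The named genes were the 8 members, at most 4 genes of each list by smallest adjusted p, and the 3 genes most like each member among those with at least 10 CPM in 2 libraries. Members and lists were chosen with earlier results of these data known. Alternatives covered filter, pseudocount, scaling, weights, series term, libraries and left-out replicates. Promoter sequences are from RefSeq (GRCh38.p14).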

Additional observations from a re-analysis of the deposited data

Results flagged for a closer look

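The difference between IBR_CLF and IBR varied between cell lines for 3 of the 8 transcripts, by a limma F-test of the interaction of treatment and line over 19 libraries. For CCL22 (adjusted p = 0.0001) the line differences in log2(CPM + 1) were 3.82 in JEKO-1, 0.96 in MINO-P, -1.64 in MINO-VR and 0.0 in Z138. For LTA (adjusted p = 0.0159) they were 3.29 in JEKO-1, 0.98 in MINO-P, 1.11 in MINO-VR and -0.16 in Z138. For CXCL10 (adjusted p = 0.00223) they were 1.90 in JEKO-1 and between -0.04 and 0.13 in the other lines, but CXCL10 passed the filter on low values only through the 2 JEKO-1 IBR_CLF libraries in which it is high, so that its p is no support. The test was chosen after the values were seen, and 27.3% of all genes passed it, a share near 3 of 8. With near-identical libraries averaged none of the 3 passed (adjusted p = 0.2499 for CCL22, 0.5563 for LTA and 0.5563 for CXCL10). The JEKO-1 IBR_CLF libraries were 59.1% and 60.7% mitochondrial, and the part of that share in the result was not tested.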

How the results depend on the processing

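Values are numbers of members called, and the share of all genes called under each alternative is not given beside them. IBR against CON (2) gave 1 with near-identical libraries averaged, no filter on low values, size factors, JEKO-1 and Z138 only, or Z138 alone, 4 with a pseudocount of 0.1, 5 with array weights and 7 without the series term. IBR against S63845 (8) gave 0 with JEKO-1 and Z138 only and 0 with Z138 alone. IBR against YM155 (2) gave 1 averaged, 4 with a filter of 1 CPM in 10 libraries, 5 with a pseudocount of 0.1, 8 with array weights, 4 with the 29 libraries, 6 without the 6 libraries over 50% mitochondrial, and 0 with JEKO-1 and Z138 only or Z138 alone. BTZ against CON (3) gave 1 with JEKO-1 and Z138 only and 1 with Z138 alone. BTZ_YM155 against BTZ (1) gave 0 averaged, with mitochondrial genes left out, with size factors and without the series term. With array weights IBR_CLF against IBR (0) gave 1, MINO-VR against MINO-P (0) gave 2, JEKO-1 against MINO-P (3) and against MINO-VR (3) gave 5 each, and Z138 against JEKO-1 (4) gave 0, as it did without the libraries over 50% mitochondrial. The line test of IBR against S63845 (0) gave 1 with no filter and 1 with array weights. That of IBR_CLF against IBR (3) gave 0 averaged, 1 with a filter of 1 CPM in 10 libraries and 0 without the libraries over 50% mitochondrial. In Z138 alone the sign turned for LTA (0.18) and LTB (0.24) in BTZ against CON and for LTA (0.019) in IBR against S63845. Leaving out 1 library at a time gave 1 to 3 for BTZ against CON, 1 to 2 for IBR against CON, 5 to 8 for IBR against S63845, 0 to 6 for IBR against YM155, 0 to 1 for BTZ_YM155 against BTZ, 6 to 7 for the cell line F-test, 3 to 4 for JEKO-1 against each MINO line, 6 to 7 for Z138 against MINO-P, 5 to 7 for Z138 against MINO-VR, 4 to 4 for Z138 against JEKO-1, 0 to 2 for the line test of IBR against S63845, 1 to 4 for that of IBR_CLF against IBR and 0 to 2 for the Z138 letter. The cause was not tested. The labels give no replicate numbers to pair by. In Z138 alone, libraries of a treatment were paired by the final letter of the library name. Over all lines that letter was used as a block, which moved IBR against YM155 from 2 to 3 and no other treatment count. Levels under the 3-read floor limit CXCL10, TNF and CCL22 in Z138.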
